A study of Mus musculus with 12 samples.

Results

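The genes described here are 10 markers of the choroid plexus and the meninges, tissues that border the brain and can be carried into a dissected cortical sample. They were chosen by name from the 55678 gene names of the expression table: Ttr, Enpp2 and Folr1 for the choroid plexus, and Ptgds, Igf2, Dcn, Col1a1, Col1a2, Slc6a13 and Bgn for the meninges. Each was measured in 12 RNA sequencing libraries of the mouse medial prefrontal cortex, in 4 groups of 3. The mice were C57BL/6JmsSlc (B6) or BALB/cCrSlc (BALB/c), aged 9 to 10 weeks, and either handled as controls or given chronic restraint stress (CRS) for 6 h a day over 21 days. The tissue was a 1.5 mm punch taken from coronal sections once the mice had been through behavioural tests. Libraries are named by the numbers in their labels. The labels give neither sex nor whether each library is 1 mouse, so p-values measure the spread between these libraries.

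The choroid plexus is a folded epithelium in the ventricles that secretes cerebrospinal fluid. Its cells are known for very high transcription of Ttr, the carrier of thyroxine and of the retinol-binding protein, and for Folr1, the receptor that moves folate into the fluid. The meninges cover the cortex, and their fibroblasts lay down type I collagen (Col1a1, Col1a2) and the small leucine-rich proteoglycans decorin (Dcn) and biglycan (Bgn). Leptomeningeal cells also make the growth factor Igf2, the prostaglandin D synthase Ptgds and the GABA and taurine transporter Slc6a13. Several of these genes have another source in cortex: Enpp2, which makes lysophosphatidic acid, and Ptgds are also transcribed by oligodendrocytes, and Bgn and the collagens by cells of vessel walls.

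Promoter windows are given for some of the members that moved together across the libraries, as shown further on, and for Ptgds, which did not move with them. Windows from 250 bases before to 50 bases after the start, from RefSeq (GRCm38.p6), were matched for 5 of the 10 members. The motifs searched, on both strands, were CCAAT with its complement ATTGG, the letters TATAAA with TTTATA, and finally GGGCGG with CCGCCC. Matches stand in capitals, each window reads 5′ to 3′ on the gene's strand, and the windows are Col1a2 at chr6:4505368-4505667 (plus strand), Bgn at chrX:73483351-73483650 (plus), Igf2 at chr7:142657447-142657746 (minus), the one of its 4 with most matches, and Ptgds at chr2:25469700-25469999 (minus). Type I collagen promoters are known for a CCAAT box, and GGGCGG is the usual GC box.
Col1a2: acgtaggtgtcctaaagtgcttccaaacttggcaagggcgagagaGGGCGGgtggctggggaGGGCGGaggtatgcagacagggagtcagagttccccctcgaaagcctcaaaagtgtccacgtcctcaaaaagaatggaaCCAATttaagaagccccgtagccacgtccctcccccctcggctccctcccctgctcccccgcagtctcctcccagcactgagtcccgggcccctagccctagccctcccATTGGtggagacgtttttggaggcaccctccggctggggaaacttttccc
Bgn: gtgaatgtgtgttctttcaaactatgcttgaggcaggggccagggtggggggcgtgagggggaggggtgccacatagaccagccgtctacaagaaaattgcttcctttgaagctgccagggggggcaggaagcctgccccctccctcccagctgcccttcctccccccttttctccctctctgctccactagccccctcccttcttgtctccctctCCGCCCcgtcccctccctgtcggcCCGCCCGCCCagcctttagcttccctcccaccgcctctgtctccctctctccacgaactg
Igf2: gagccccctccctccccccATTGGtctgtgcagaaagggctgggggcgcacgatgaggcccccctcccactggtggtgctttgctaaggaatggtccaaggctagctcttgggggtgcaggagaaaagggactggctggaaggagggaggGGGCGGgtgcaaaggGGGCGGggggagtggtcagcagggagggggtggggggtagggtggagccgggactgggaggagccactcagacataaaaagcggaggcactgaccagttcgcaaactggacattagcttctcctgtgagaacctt
Ptgds: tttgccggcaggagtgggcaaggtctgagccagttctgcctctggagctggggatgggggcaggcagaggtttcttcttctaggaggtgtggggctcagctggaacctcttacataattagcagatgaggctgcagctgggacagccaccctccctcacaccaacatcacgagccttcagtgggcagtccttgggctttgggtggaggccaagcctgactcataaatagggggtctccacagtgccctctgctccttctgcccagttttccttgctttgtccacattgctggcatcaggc

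The Col1a2 window held 2 matches to CCAAT and 2 to GGGCGG. The Bgn window held 3 matches to GGGCGG, of which 2 overlapped each other, and the Igf2 window held 1 match to CCAAT and 2 to GGGCGG. The Ptgds window held none of the 3 motifs. Over all 32851 windows of this length, 37.4% held the first motif, 13.6% the second and 35.7% the third, so these matches are common and are given as a description. Slc6a13 had 3 windows and Igf2 another 3, not shown. Like that of Ptgds, the Igf2 windows at chr7:142666767-142667066 and chr7:142661222-142661521 held none of the 3 motifs. The Igf2 window at chr7:142658755-142659054 held 1 match to GGGCGG. No contrast between Igf2 and Ptgds is read from the window printed. Windows of Ttr, Enpp2, Folr1, Dcn and Col1a1 were not used here.

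Expression was given in TPM, a share of the library's transcripts that corrects for transcript length, so levels can be compared between genes. TPM keep no read numbers, so the depth behind each value is unknown and counting error cannot be given. The libraries had 14805 to 15542 genes at 1 TPM or more. Mitochondrial RNA took 17.4% to 23.9% of TPM, and 18S ribosomal RNA took 0.031% to 0.169% in 11 libraries and 3.97% in BALB/c CRS library 12. Markers of cortical neurons were high in every library, with Snap25 at 1198 to 2719 TPM and Slc17a7 at 390.4 to 1074 TPM. Striatal markers varied widely, with Penk at 27.6 to 1182 TPM. In these bulk samples fewer cells of a type and less RNA per cell cannot be told apart.

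The tests used limma on log2(TPM + 1) over the 16423 genes that reached 1 TPM in 3 or more libraries. A call is a Benjamini-Hochberg adjusted p under 0.05 across them. All 10 members passed the filter. Folr1 passed it through 4 libraries, 3 of them B6 CRS, the group in which it was highest.

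Choroid plexus RNA was checked first. The level of Ttr ran from 5.01 TPM in B6 CRS library 14 to 55.1 TPM in B6 control library 9, an 11-fold range. The 16 further choroid plexus genes present were mixed. Of these, 10 exceeded 1 TPM in at least 1 library, among them Ecrg4 (0.419 to 9.59 TPM), Clic6 (0.04 to 7.33 TPM), Calml4 (0 to 5.45 TPM), Otx2 (0 to 3.41 TPM) and Kcnj13 (0 to 1.83 TPM). The other 6 stayed under 1 TPM in every library, and are named here after their values were seen. Kcne2, a potassium channel subunit, reached at most 0.352 TPM, the water channel Aqp1 0.38 TPM, the bicarbonate transporter Slc4a5 0.416 TPM, Tmem72 0.097 TPM, the tight junction gene Cldn2 0.3 TPM and Sostdc1 0.864 TPM. Slc4a5 was listed at 0 in 5 libraries and Kcne2 in 3.

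The summed level of the 16 genes was 11.8 to 30.3 TPM in B6 controls, 26.7 to 44.0 TPM in B6 CRS, 10.6 to 17.3 TPM in BALB/c controls and 9.05 to 18.5 TPM in BALB/c CRS. Car12, a carbonic anhydrase, made up much of this sum, at 5.19 to 12.9 TPM. The library with the most Ttr did not have the highest sum: B6 control library 9 was at 11.8 TPM, the lowest of the B6 libraries. Single genes differed in this. Kcne2 (0.352 TPM), Slc4a5 (0.416 TPM) and Kcnj13 (1.83 TPM) were highest in B6 control library 3, where Ttr was at 33.2 TPM. Ecrg4 (9.59 TPM), Clic6 (7.33 TPM) and Otx2 (3.41 TPM) were highest in B6 CRS library 12, where Ttr was at 6.87 TPM. The values below are given gene by gene and not as a level of choroid plexus tissue.

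**Figure D1:**
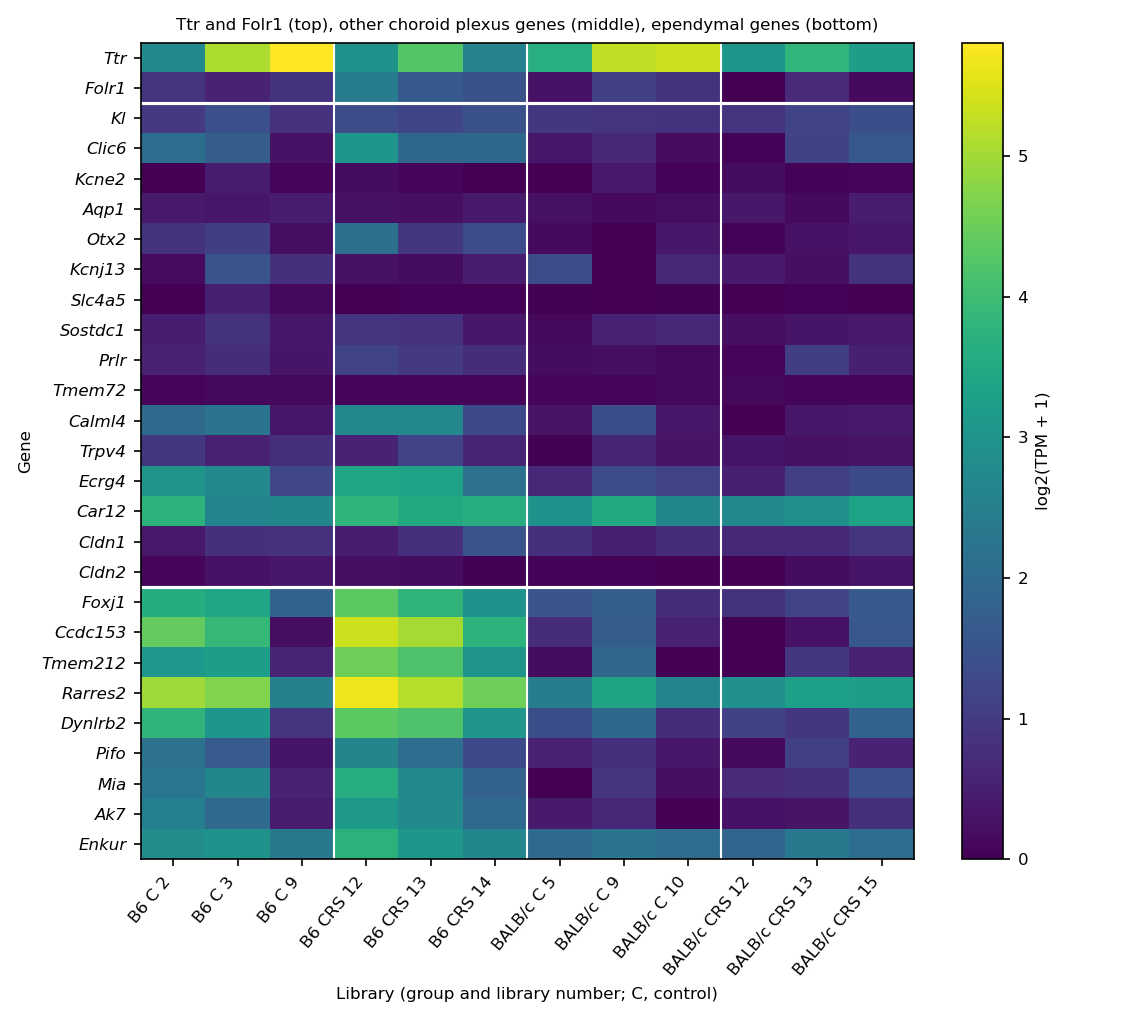
Level of choroid plexus and ependymal genes in each library as log2(TPM + 1), with libraries in columns (group and library number) and genes in rows; the colour scale starts at 0. Ttr is bright in B6 control libraries 3 and 9 and BALB/c control libraries 9 and 10, whereas Kcne2, Slc4a5, Tmem72 and Cldn2 are dark throughout and the ependymal genes at the bottom are bright in B6 libraries other than control library 9.

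Ttr separated neither strains nor treatments. It was at 5.67, 33.2 and 55.1 TPM in B6 control libraries 2, 3 and 9 and at 6.87, 17.9 and 5.01 TPM in B6 CRS libraries 12, 13 and 14. In BALB/c it was at 11.4, 37.4 and 40.2 TPM in control libraries 5, 9 and 10 and at 7.44, 13.2 and 8.60 TPM in CRS libraries 12, 13 and 15. In each strain 2 controls were high and 1 was low, and the low control lay within the range of the CRS libraries, so the groups overlapped. The order of the group means was B6 control (31.3 ± 24.7 TPM), BALB/c control (29.7 ± 15.9 TPM), B6 CRS (9.94 ± 7.00 TPM) and BALB/c CRS (9.77 ± 3.07 TPM; SD, n = 3 each). The log2 change with CRS was -1.28 in B6 (SE 0.71, 95% interval -2.82 to 0.26) and -1.36 in BALB/c (SE 0.71, 95% interval -2.91 to 0.18), with an adjusted p of 1 in each (limma). Averaged over the strains it was -1.32 (SE 0.50, adjusted p 0.946, limma), with an unadjusted p of 0.0217. In that average 4 of 10 members had an unadjusted p under 0.05 (Ttr, Enpp2, Igf2 and Slc6a13) against 5.17% of all genes, and none was called against 0.00609%. Over the fits that each left out 1 library the B6 value ran from -2.18, without control library 2, to -0.65, without control library 9.

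Over the 12 libraries Ttr also did not move with Enpp2 or Folr1. Its Pearson r with Enpp2 over 12 libraries was 0.188 (permutation p 0.551, adjusted 0.648) and its Spearman rho was 0.168 (permutation p 0.603, adjusted 0.705). With Folr1 the r was -0.0881 (permutation p 0.789, adjusted 0.831) and rho was -0.0979 (permutation p 0.766, adjusted 0.806). Within BALB/c, Ttr and Folr1 had an r of 0.914 (exact permutation p 0.00417, n = 6), at Folr1 levels no higher than 1.16 TPM, and within B6 it was -0.506 (exact permutation p 0.306, n = 6). With group means removed, the r of Ttr and Folr1 over 12 libraries was 0.225. The genes whose log2 levels were most like that of Ttr over the 12 libraries were Map3k8 (r 0.885), Gdap2 (0.872), C1ra (0.857), Adk (0.848) and Dpp4 (0.842). They were the highest of all tested genes outside the 10. None was in the list of choroid plexus genes, but only 6 of the 16 present passed the filter and could appear. Nothing is read from their absence.

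Folr1 was the choroid plexus marker that was called between strains, and it was low in every library. It was at 0.85, 0.50 and 0.80 TPM in B6 control libraries 2, 3 and 9, and at 4.50, 2.14 and 1.70 TPM in B6 CRS libraries 12, 13 and 14. In BALB/c it was at 0.23, 1.16 and 0.79 TPM in control libraries 5, 9 and 10 and at 0, 0.64 and 0.11 TPM in CRS libraries 12, 13 and 15. The 3 B6 CRS libraries lay above all other 9 libraries. Under CRS the log2 difference of Folr1, BALB/c minus B6, was -1.56 (SE 0.31, adjusted p 0.00993, limma), with all 3 BALB/c libraries below all 3 B6 libraries. Of all tested genes, 7.70% were called in this comparison and 23.8% had an unadjusted p under 0.05, and of the 10 members 1 and 2. The groups did not overlap for 1 member higher in BALB/c and 2 lower, against 9.29% and 20.0% of all genes. Since Folr1 entered the test mainly through the B6 CRS libraries that this comparison uses, the filter favoured a difference here. With no filter the adjusted p was 0.0218 (limma), and with a mean of at least 5 TPM Folr1 was not tested. Without BALB/c CRS library 12 the adjusted p was 0.05003 (limma), just outside the threshold, at a log2 value of -1.41.

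With CRS in B6 the groups did not overlap for Folr1 alone of the 10, and its log2 change of 1.07 (SE 0.31) was not called (adjusted p 1, limma; unadjusted 0.00425). Of all genes 0% were called there and 4.82% had an unadjusted p under 0.05, which Folr1 alone of the members had. Non-overlap was found for 4.63% of all genes in the higher and 3.70% in the lower direction. The strain difference in its CRS effect, -1.53 (SE 0.43), was not called either (adjusted p 1.00, limma; unadjusted 0.00399). The TPM of Folr1 were spread thinly: 12 of its 16 rows had a value above 0, and 3.03 of the 4.50 TPM of B6 CRS library 12 came from a row at 0 in the other 11 libraries. In GENCODE M21 (GRCm38) Folr1 lies on chromosome 7 from 101858331 to 101870788 and overlaps Anapc15 on the other strand, which was at 18.0 to 28.2 TPM. Whether strand was used in counting is not given, so the value of Folr1 is uncertain.

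Under CRS, genes of ependymal cells, which line the ventricles, were higher in B6 than in BALB/c libraries, and B6 controls overlapped with B6 CRS. The summed level of 9 ependymal genes was 68.0 to 186.7 TPM in B6 CRS and 12.3 to 21.7 TPM in BALB/c CRS, against 14.2 to 100.7 TPM in B6 controls and 10.7 to 25.6 TPM in BALB/c controls. Under CRS, 875 of all 16423 tested genes were called lower in BALB/c, and 7 of these 9 were, among them the ciliary regulator Foxj1 (log2 -2.47, adjusted p 0.00816), Ccdc153 (-4.09, adjusted p 0.0173) and Tmem212 (-3.39, adjusted p 0.0128, all limma). Of the 6 further choroid plexus genes that passed the filter, 3 were called lower: the transcription factor Otx2 (-1.25, adjusted p 0.0307), Ecrg4 (-2.02, adjusted p 0.0193) and Calml4 (-1.95, adjusted p 0.0392, all limma). Otx2 reached 1 TPM only in B6 libraries, and Calml4 in 5 B6 libraries and 1 BALB/c control. They passed the filter mainly through the strain in which they were high, and the count of 3 supports nothing. Of the ependymal genes, Ak7 reached 1 TPM only in B6 libraries, and others, among them Tmem212 and Ccdc153, mainly in them. Rarres2 reached it in every library. The filter thus favoured a difference for part of the list, and nothing is read from the count of 7. Folr1 followed Foxj1 over 12 libraries (Pearson r 0.72, permutation p 0.00602, adjusted 0.0109; Spearman rho 0.713, permutation p 0.0112, adjusted 0.0249). The relation did not hold within strains, where r was 0.613 in B6 (exact permutation p 0.197, n = 6) and 0.138 in BALB/c (exact permutation p 0.781, n = 6), and it was 0.423 once the 2 libraries most distant from the median of Foxj1 were dropped. Striatal markers also differed between the strains under CRS, with a sum of 814.6 to 2144 TPM in B6 CRS and 116.1 to 159.1 TPM in BALB/c CRS. In controls their sum was 189.0 to 2638 TPM in B6 and 92.6 to 343.7 TPM in BALB/c. The highest sum was in B6 control library 2, where Folr1 was at 0.845 TPM. The part of ependymal or striatal tissue in the Folr1 result was not tested.

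Enpp2, which encodes autotaxin, was the second most abundant member. It was at 154.7, 123.2 and 112.8 TPM in B6 control libraries 2, 3 and 9 and at 97.6, 136.9 and 67.7 TPM in B6 CRS libraries 12, 13 and 14. In BALB/c it was at 86.3, 81.0 and 70.9 TPM in control libraries 5, 9 and 10 and at 60.7, 75.1 and 57.6 TPM in CRS libraries 12, 13 and 15. The control groups of the strains did not overlap, and the CRS groups did. The log2 difference, BALB/c minus B6, was -0.70 in controls (SE 0.22, adjusted p 0.0941, limma) and -0.59 under CRS (SE 0.22, adjusted p 0.118, limma), neither of which was called. Without B6 CRS library 13 the value under CRS was -0.34 (adjusted p 0.349, limma). Without B6 CRS library 14 both were called, at -0.70 (adjusted p 0.0349, limma) and -0.84 (adjusted p 0.0243, limma). The control value was also called without B6 CRS library 13 (adjusted p 0.0415, limma).

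The rows of Enpp2 differed between strains to different degrees. The third of its 9 rows was at 34.1, 24.4 and 13.2 TPM in B6 control libraries 2, 3 and 9 and at 21.5, 26.3 and 14.1 TPM in B6 CRS libraries 12, 13 and 14. In BALB/c it was at 4.53, 12.5 and 0.819 TPM in control libraries 5, 9 and 10 and at 2.04, 4.42 and 5.11 TPM in CRS libraries 12, 13 and 15. Every B6 library lay above every BALB/c library. The row was chosen after its values were seen.

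The most abundant row of Enpp2 gave 64.7% to 83.6% of its TPM. The rows carry no transcript names, so neither could be tied to an isoform. With the third row left out, the strain difference of Enpp2 was -0.53 in controls (SE 0.21, adjusted p 0.208, limma) and -0.35 under CRS (SE 0.21, adjusted p 0.358, limma). The sum of 11 oligodendrocyte genes was 2612 to 10013 TPM in B6 controls, 2829 to 8113 TPM in B6 CRS, 496.8 to 3195 TPM in BALB/c controls and 562.6 to 1508 TPM in BALB/c CRS. The part of oligodendrocytes in the Enpp2 values was not tested.

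**Figure D2:**
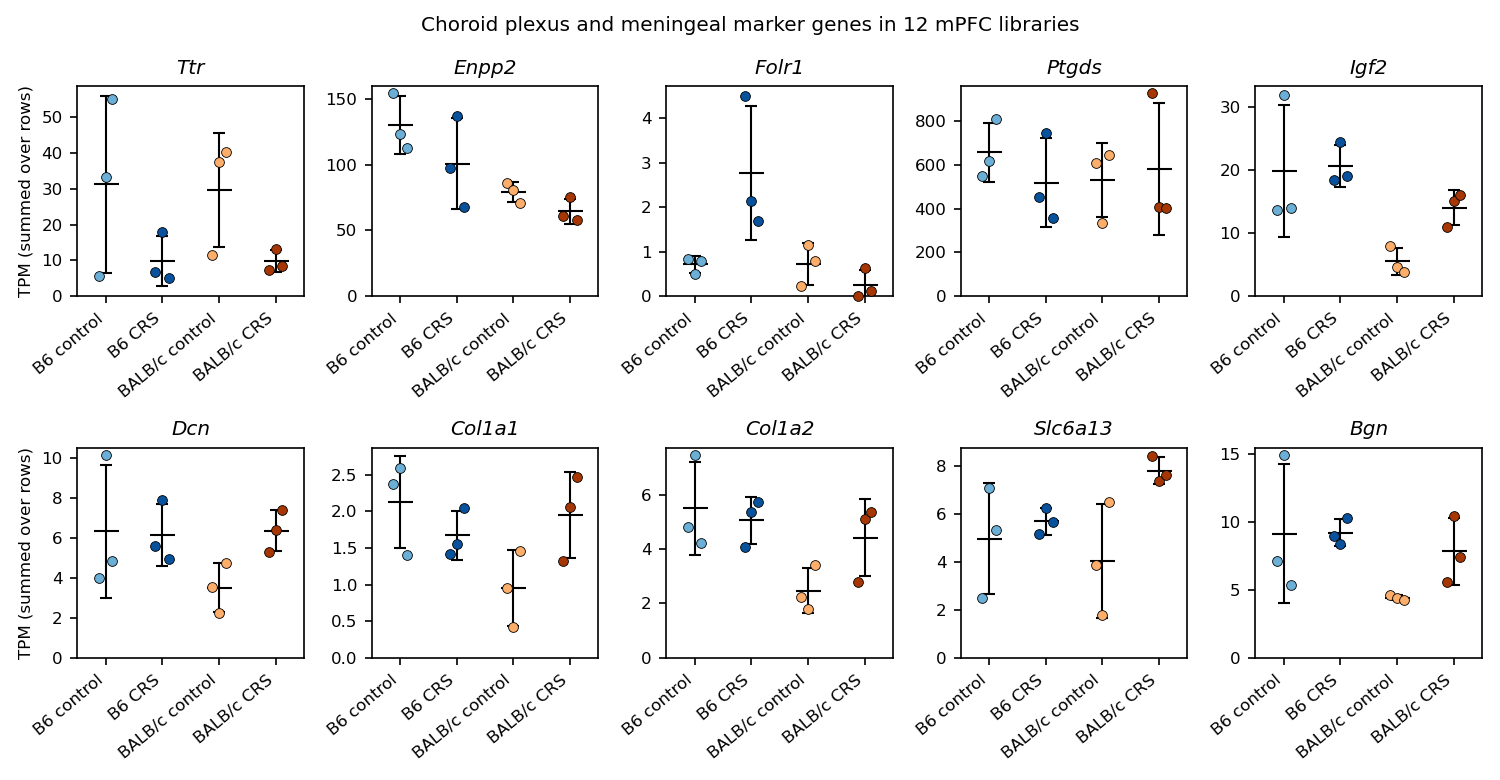
TPM of the 10 genes in each library, 1 panel per gene with an axis from 0; points are libraries, and the bar and whiskers give the mean and SD of 3 libraries. Igf2 and Bgn are lower in all 3 BALB/c controls than in any other group's libraries, Folr1 is highest in the 3 B6 CRS libraries, and Ptgds overlaps between all groups.

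The meningeal genes gave the called difference between control groups. Igf2, a growth factor of fetal tissues that leptomeningeal cells go on making in adults, was at 13.7, 31.9 and 14.1 TPM in B6 control libraries 2, 3 and 9. It was at 8.03, 4.65 and 3.89 TPM in BALB/c control libraries 5, 9 and 10. The 3 BALB/c controls lay below all other 9 libraries. The log2 difference of Igf2 between controls, BALB/c minus B6, was -1.62 (SE 0.31, 95% interval -2.29 to -0.95, adjusted p 0.00893, limma). Of all tested genes, 4.73% were called in this comparison and 18.7% had an unadjusted p under 0.05, and the median of all genes was -0.10. Of the 10 members 1 was called, 6 had an unadjusted p under 0.05 and 9 had a negative value (8 under median-of-ratios scaling). The groups did not overlap for 4 members, all lower in BALB/c, against 18.7% of all genes lower and 4.16% higher. The Igf2 value was -1.52 under that scaling, which brings the median of all genes to 0.0035, and was called (adjusted p 0.0113, limma). It was not called without BALB/c control library 10 (-1.44, adjusted p 0.0502, limma) or with the 2 control groups fitted alone (adjusted p 0.072, limma).

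After CRS the strain difference in Igf2 was smaller. It was at 18.5, 24.4 and 19.1 TPM in B6 CRS libraries 12, 13 and 14, while BALB/c CRS libraries 12, 13 and 15 had 10.97, 15.2 and 16.1 TPM. These groups did not overlap, with BALB/c below B6, and the log2 difference was -0.53 (SE 0.31, adjusted p 0.326, limma). Within BALB/c the CRS libraries were higher than the controls by 1.24 (SE 0.31, 95% interval 0.57 to 1.91, unadjusted p 0.00162), and the groups did not overlap. This was not called (adjusted p 1, limma). In B6 the value was 0.15 (SE 0.31, adjusted p 1, limma), and the difference between strains, 1.09 (SE 0.43), was not called (adjusted p 1.00, limma; unadjusted 0.0271) and was 0.71 without B6 control library 3. The order of the group means was B6 CRS (20.7 ± 3.26 TPM), B6 control (19.9 ± 10.4 TPM), BALB/c CRS (14.1 ± 2.72 TPM) and BALB/c control (5.52 ± 2.20 TPM; SD, n = 3 each). B6 CRS and B6 control overlapped, as did B6 control with BALB/c CRS.

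Igf2 lies on chromosome 7 from 142650766 to 142666816 in GENCODE M21 (GRCm38). The genes that overlap it, Igf2os on the other strand and Gm49394 and Mir483 on its own, were at most at 0.099 TPM. Of its 9 rows 5 had a value above 0, and the most abundant gave 49.0% to 90.6% of its TPM. The Igf2 window with most matches printed above is the most 3′ of the 4 in RefSeq, and the rows could not be assigned to any of them.

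The fibroblast matrix genes were lowest in the same BALB/c controls. Col1a2, the second chain of type I collagen, was at 4.80, 7.44 and 4.23 TPM in B6 control libraries 2, 3 and 9 and at 2.23, 1.78 and 3.40 TPM in BALB/c control libraries 5, 9 and 10. It was at 4.08, 5.37 and 5.71 TPM in B6 CRS libraries 12, 13 and 14, while BALB/c CRS libraries 12, 13 and 15 had 2.78, 5.12 and 5.36 TPM. The control groups did not overlap, and the log2 difference of -0.90 (SE 0.25, adjusted p 0.0703, limma) was not called. Without B6 control library 9 it was -1.04 and called (adjusted p 0.0419, limma), as it was without BALB/c CRS library 12 (-0.90, adjusted p 0.0400, limma). Over all fits that each left out 1 library it ran from -1.08 to -0.69, with adjusted p up to 0.223 (limma).

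Bgn was at 7.12, 15.0 and 5.40 TPM in B6 control libraries 2, 3 and 9, and at 4.61, 4.40 and 4.26 TPM in BALB/c control libraries 5, 9 and 10. It was at 9.01, 8.40 and 10.3 TPM in B6 CRS libraries 12, 13 and 14, with 5.62, 10.5 and 7.45 TPM found for BALB/c CRS libraries 12, 13 and 15. The BALB/c controls were the 3 lowest libraries (4.42 ± 0.18 TPM, SD, n = 3). Their log2 difference from B6 controls was -0.79 (SE 0.29, adjusted p 0.155, limma), -1.07 without B6 control library 9 (adjusted p 0.0360, limma) and -0.41 without B6 control library 3 (adjusted p 0.403, limma).

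Dcn, which binds collagen fibrils, was at 3.999, 10.1 and 4.86 TPM in B6 control libraries 2, 3 and 9 and at 3.52, 2.26 and 4.74 TPM in BALB/c control libraries 5, 9 and 10. It was at 5.58, 7.90 and 4.95 TPM in B6 CRS libraries 12, 13 and 14, while BALB/c CRS libraries 12, 13 and 15 had 5.31, 6.38 and 7.40 TPM. The BALB/c controls lay below the BALB/c CRS libraries and overlapped with the B6 controls. Col1a1 was the lowest of the matrix genes, at 0.43 to 2.59 TPM over the 12 libraries, and its groups overlapped in all 4 comparisons. In controls the log2 strain differences of Dcn and Col1a1 were -0.65 (SE 0.29, adjusted p 0.262) and -0.70 (SE 0.24, adjusted p 0.145, both limma). Without B6 control library 3 that of Dcn was -0.30 (adjusted p 0.647, limma).

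Slc6a13, the transporter GAT2, had another order. It was at 2.49, 7.08 and 5.35 TPM in B6 control libraries 2, 3 and 9 and at 5.18, 6.28 and 5.66 TPM in B6 CRS libraries 12, 13 and 14. In BALB/c it was at 3.87, 1.78 and 6.52 TPM in control libraries 5, 9 and 10 and at 8.45, 7.38 and 7.63 TPM in CRS libraries 12, 13 and 15. The BALB/c CRS libraries lay above all other 9 libraries. They exceeded B6 CRS libraries by a log2 value of 0.40 (SE 0.34, adjusted p 0.53, limma) and BALB/c controls by 0.92 (SE 0.34, adjusted p 1, limma; unadjusted 0.0192), neither called. The second value was 0.54 without BALB/c control library 9 (adjusted p 1, limma).

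Ptgds was the most abundant member, and its groups overlapped in all 4 comparisons. It was at 549.0, 616.3 and 807.2 TPM in B6 control libraries 2, 3 and 9 and at 452.3, 746.7 and 358.2 TPM in B6 CRS libraries 12, 13 and 14. In BALB/c it was at 610.0, 336.7 and 642.6 TPM in control libraries 5, 9 and 10 and at 927.2, 409.7 and 403.2 TPM in CRS libraries 12, 13 and 15. The highest value was in the BALB/c library with the most 18S ribosomal RNA. Its log2 change with CRS was 0.07 in BALB/c (SE 0.36, 95% interval -0.71 to 0.85, adjusted p 1, limma).

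**Figure D3:**
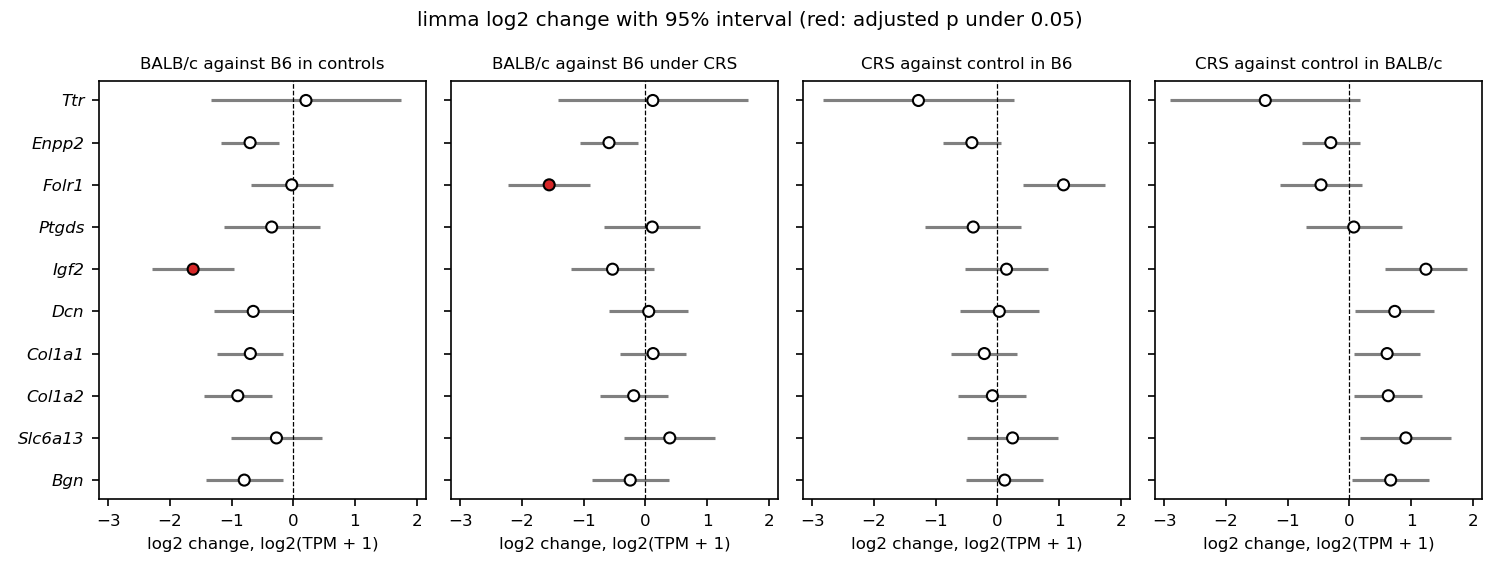
Log2 change of the 10 genes in 4 comparisons, on the log2(TPM + 1) scale, with 95% intervals from limma; red points have an adjusted p under 0.05. The red points are Igf2 in controls (-1.62) and Folr1 under CRS (-1.56), and in the rightmost panel the intervals of Igf2, Dcn, Col1a1, Col1a2, Slc6a13 and Bgn lie above 0.

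With CRS in BALB/c all 7 meningeal members had a positive value, as had 10261 of all 16423 tested genes. The median log2 change of the 7 was 0.67 against 0.05 over all tested genes. None was called, and 0.00609% of all genes were. An unadjusted p under 0.05 was found for 6 of the 7, against 3.03% of all genes. The 2 groups did not overlap for 4 of the 7 (Igf2, Dcn, Slc6a13 and Bgn), all higher after CRS, against 5.36% of all genes higher and 2.02% lower. The values of Dcn, Bgn, Col1a2 and Col1a1 were 0.74 (SE 0.29), 0.67 (SE 0.29), 0.63 (SE 0.25) and 0.61 (SE 0.24), each with an adjusted p of 1 (limma), and that of Col1a1 was 0.41 without BALB/c control library 9. In B6 none of 10 members was called, and the meningeal members had a median of 0.03, with 4 positive and 3 negative values. For the strain difference in the CRS effect all 7 values were positive, as were those of 9797 of all 16423 genes. The median of the 7 was 0.70 against 0.05 over all genes, and none was called, as was the case for 0% of all genes (limma). An unadjusted p under 0.05 was found for 2 of the 7, Igf2 and Col1a1, against 2.70% of all genes. These comparisons share the BALB/c controls with the strain comparison above, so the low control values enter each of them. Several of the 7 also moved together with group means removed, with r 0.878 for Col1a1 and Col1a2 and 0.792 for Dcn and Slc6a13. The counts of members are therefore not counts of separate observations.

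The other genes of meningeal fibroblasts, from a list of 19 of which 16 could be tested, were read in the same way. With CRS in BALB/c, 10261 of all 16423 genes were positive, with a median of 0.05. All 16 of the list were positive there, with a median of 0.51, and none was called. Among them the fibrillar collagen Col3a1 had a value of 0.74 (SE 0.32), the proteoglycan Lum 0.63 (SE 0.27) and the matrix Gla protein Mgp 0.54 (SE 0.31), each with an adjusted p of 1 (limma). In controls 14 of the 16 had a negative value, as had 11111 of all 16423 genes. In that comparison 1 was called, against 4.73% of all genes, the complement inhibitor Serping1 (log2 -0.96, SE 0.22, adjusted p 0.0241, limma). The median of the list there was -0.33 against -0.10 over all genes. The sum of the 19 genes was 92.3 to 152.0 TPM in B6 controls, 115.2 to 147.3 TPM in B6 CRS, 56.8 to 94.7 TPM in BALB/c controls and 92.1 to 133.2 TPM in BALB/c CRS. Zic1, a transcription factor gene of the list, ran from 3.02 to 69.4 TPM.

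**Figure D4:**
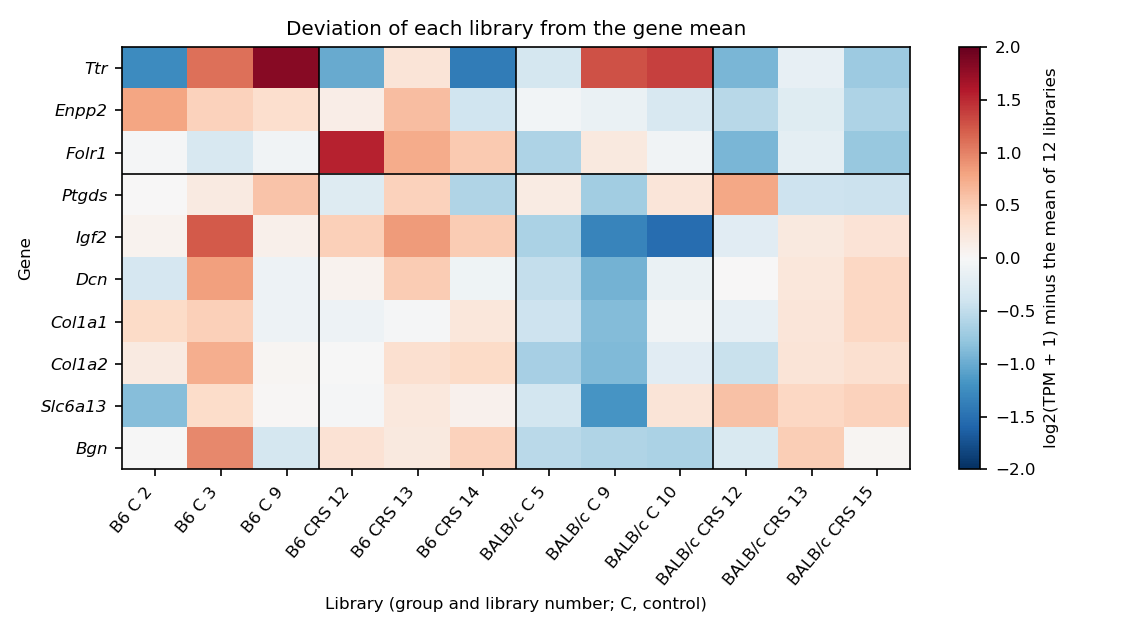
Deviation of each library (columns, group and library number) from the 12-library mean of each gene (rows), on the log2(TPM + 1) scale, with red above and blue below the mean. The lower rows are red in B6 control library 3 and blue in BALB/c control library 9, apart from Ptgds in the former, which is pale, while the Ttr row follows another pattern.

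Single libraries stood out across the matrix genes. B6 control library 3 was the highest of the 12 libraries for all 5 of Igf2, Dcn, Col1a1, Col1a2 and Bgn. BALB/c control libraries 5 and 9 were among the 3 lowest libraries for all 5. Without B6 control library 3 the Igf2 difference between control groups was -1.24 (adjusted p 0.0207, limma).

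The matrix genes were correlated over the libraries. Shifts between groups, such as the low BALB/c controls, enter these values. Col1a1 and Col1a2, whose products assemble into the same fibril, had a Pearson r of 0.909 (permutation p 2e-05, adjusted 0.000133) and a Spearman rho of 0.86 (permutation p 0.00061, adjusted 0.00407). The r was 0.821 once the 2 libraries most distant from the median were dropped. It was 0.757 within B6 (exact permutation p 0.0861, n = 6) and 0.969 within BALB/c (exact permutation p 0.00139, n = 6). Dcn and Col1a2 had an r of 0.833 (permutation p 0.00076, adjusted 0.0038) and a rho of 0.755 (permutation p 0.00573, adjusted 0.0143), with r 0.605 without 2 libraries. The r was 0.719 within B6 (exact permutation p 0.107, n = 6) and 0.931 within BALB/c (exact permutation p 0.00833, n = 6). With group means removed, r was 0.878 for Col1a1 and Col1a2 and 0.754 for Dcn and Col1a2.

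Dcn and Slc6a13 had an r of 0.795 (permutation p 0.00146, adjusted 0.00487) and a rho of 0.699 (permutation p 0.0139, adjusted 0.0278), with r 0.677 without 2 libraries. It was 0.771 within B6 (exact permutation p 0.0708, n = 6) and 0.932 within BALB/c (exact permutation p 0.0111, n = 6). For Dcn and Igf2 the r was 0.782 (permutation p 0.00283, adjusted 0.0079), the rho 0.825 (permutation p 0.00161, adjusted 0.00805) and the r without 2 libraries 0.56. Within B6 it was 0.959 (exact permutation p 0.00278, n = 6) and within BALB/c 0.756 (exact permutation p 0.0792, n = 6). Dcn and Col1a1 had an r of 0.75 (permutation p 0.00561, adjusted 0.0109) and a rho of 0.65 (permutation p 0.0251, adjusted 0.0457). That r fell to 0.377 without the 2 farthest libraries. It differed between the strains, at 0.203 within B6 (exact permutation p 0.653, n = 6). Within BALB/c it was 0.984 (exact permutation p 0.00278, n = 6). With group means removed, r was 0.792 for Dcn and Slc6a13, 0.675 for Dcn and Igf2 and 0.566 for Dcn and Col1a1.

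Ptgds stood apart from this group, with an r of 0.252 to Dcn (permutation p 0.429, adjusted 0.57; rho 0.175, permutation p 0.586, adjusted 0.705). The genes most like Dcn over the 12 libraries, outside the 10, were Cped1 (r 0.919), Lum (0.915), Itih2 (0.906), Cp (0.899) and Vtn (0.893). Lum was in the meningeal list and Vtn, a pericyte gene, in the mural list. Both are extracellular proteins.

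**Figure D5:**
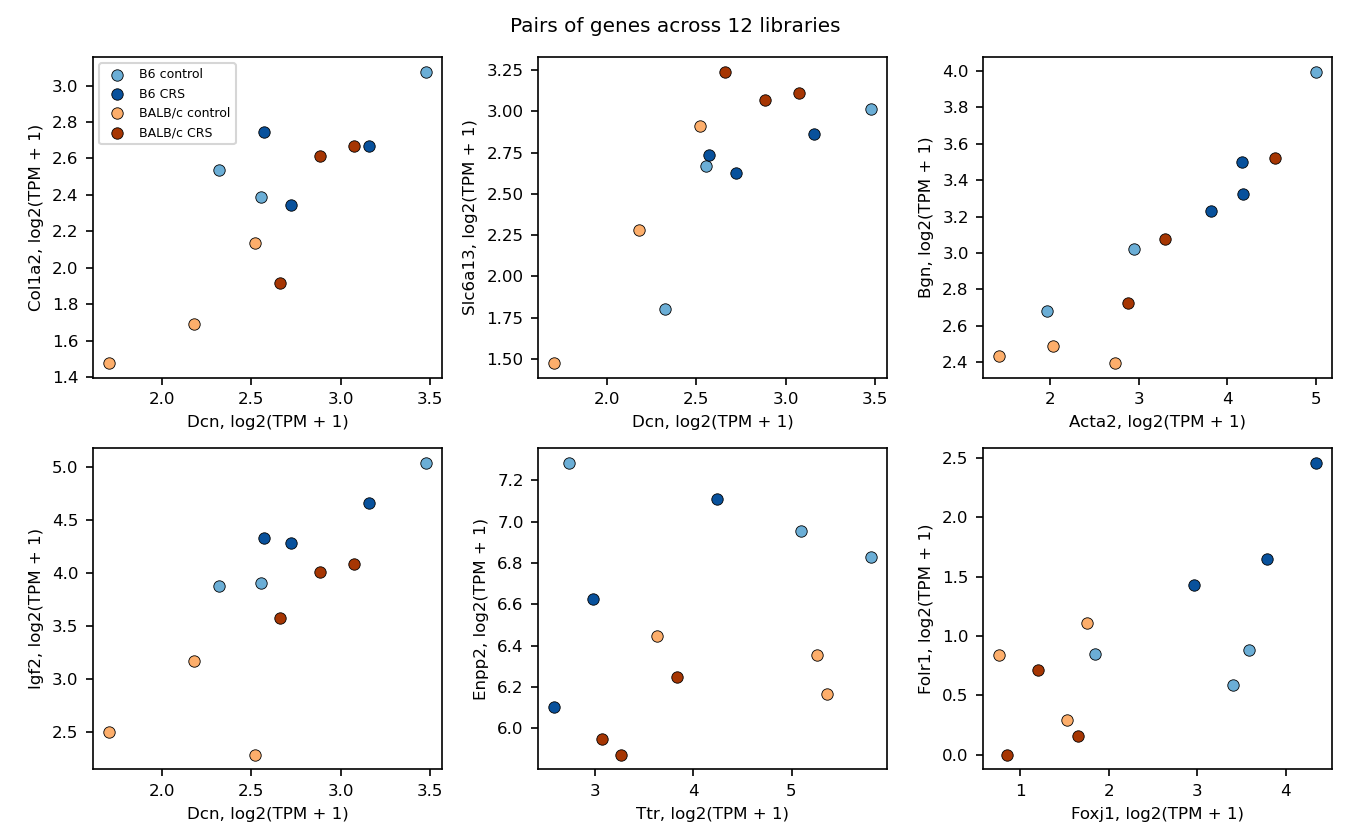
Pairs of genes over the 12 libraries, each axis in log2(TPM + 1) and each point 1 library coloured by group. Points rise along a line for Dcn and Col1a2, Dcn and Igf2, and Acta2 and Bgn, whereas Ttr and Enpp2 (r 0.188) show no such order.

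A smooth muscle gene of the mural list moved with some of the same members. The sum of 12 mural genes was 119.5 to 204.0 TPM in B6 controls, 157.3 to 164.8 TPM in B6 CRS, 104.1 to 126.1 TPM in BALB/c controls and 129.9 to 173.2 TPM in BALB/c CRS, and the highest value was again in B6 control library 3. Acta2, the actin of smooth muscle, was at 31.0 TPM in that library and 1.69 TPM in BALB/c control library 9. Rgs5, of the same list, was at 33.9 and 36.6 TPM in these libraries. Between controls, BALB/c minus B6, 3 of the 12 mural genes were positive and 9 negative, against 5306 and 11111 of all 16423 genes. Bgn followed Acta2 (Pearson r 0.935, permutation p 1e-05, the smallest that 100000 resamples can give, adjusted 0.0001; Spearman rho 0.944, permutation p 3e-05, adjusted 0.0003), with r 0.91 without 2 libraries. Within B6 the r was 0.96 (exact permutation p 0.00833, n = 6) and within BALB/c 0.903 (exact permutation p 0.00972, n = 6). Bgn and Cldn5, the tight junction gene of brain endothelium, had an r of 0.237 (permutation p 0.456, adjusted 0.57; rho 0.154, permutation p 0.635, adjusted 0.705), with 0.931 within B6 (exact permutation p 0.0111, n = 6) and -0.0756 within BALB/c (exact permutation p 0.9, n = 6). Igf2 followed Acta2 with an r of 0.768 (permutation p 0.00316, adjusted 0.0079; rho 0.804, permutation p 0.00259, adjusted 0.00863). It was 0.576 without 2 libraries, 0.84 within B6 (exact permutation p 0.0333, n = 6) and 0.718 within BALB/c (exact permutation p 0.104, n = 6). The pairs with Acta2 and Foxj1 were chosen after their values were seen, and p-values were adjusted over all 20 pairs computed. The sum of 11 endothelial genes was 227.7 to 253.7 TPM in B6 controls and 214.3 to 226.9 TPM in BALB/c controls. The part of vessel walls in the Igf2, Bgn and collagen values was not tested.

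The pathways around the members were also read, from lists of their receptors, enzymes and partners. Of 9 tested IGF genes 0 were called in controls and 1 was called under CRS, the binding protein Igfbp6, which was higher in BALB/c (shares of all genes called 4.73% and 7.70%; log2 1.26, SE 0.28, adjusted p 0.0208, limma). It was at 24.4, 34.2 and 29.6 TPM in B6 CRS libraries 12, 13 and 14, while BALB/c CRS libraries 12, 13 and 15 had 76.0, 77.6 and 60.4 TPM, without overlap. Among 5 tested genes of the prostaglandin D pathway, Hpgds, the other prostaglandin D synthase, was lower in BALB/c controls (log2 -0.86, SE 0.18, adjusted p 0.0162, limma), at 1.92 to 1.93 TPM against 3.22 to 5.30 TPM in B6. Ptgs2, which makes the precursor of prostaglandins, was higher in BALB/c under CRS (log2 1.40, SE 0.29, adjusted p 0.0140, limma), at 7.02 to 11.7 TPM against 1.82 to 4.22 TPM. Of 7 genes of thyroid hormone handling, 1 was called, the deiodinase Dio2, lower in BALB/c controls (log2 -0.64, SE 0.15, adjusted p 0.0266, limma). Counts of 1 in lists this short cannot be set apart from those shares, and nothing is read from them.

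No gene was called in the 4 strain and CRS comparisons among 4 tested genes of lysophosphatidic acid signalling, 7 of folate uptake and use, 11 of collagen assembly and 5 transporters related to Slc6a13. Among them were the phosphatase Plpp3 (77.1 to 146.2 TPM), Mthfd1 (12.9 to 22.5 TPM), the collagen-binding protein Sparc (86.9 to 136.8 TPM) and the astrocytic GABA transporter Slc6a11 (37.8 to 73.2 TPM). Of the pathway genes tested, none was called for CRS in either strain (limma). Red blood cell genes, a sign of blood left in the tissue, summed to 27.1 to 110.7 TPM in B6 controls, 24.5 to 36.0 TPM in B6 CRS, 12.0 to 38.6 TPM in BALB/c controls and 4.33 to 40.1 TPM in BALB/c CRS.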

How the data were processed

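Stranded mRNA libraries, 12 in all, were made from mouse medial prefrontal cortex, per the labels' protocols. The deposited table holds TPM, with rows that carry gene names, many of them shared, and 1 column per library (147902 rows, 55678 names). What a row stands for is not stated. Each column sums to 1000000. The unit was read from the values. The submitters' processing notes name cutadapt 2.9, Salmon and GRCm38; the annotation, filters and use of strand are not given in the sources used here. TPM keeps no depth, so counting error cannot be given.

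TPM were summed per gene name. The 16423 genes reaching 1 TPM in 3 or more libraries were fitted on log2(TPM + 1), which understates changes of low genes, in limma 3.58.1 (R 4.3.3) with 4 group means and an intensity trend (8 residual degrees of freedom). P-values were adjusted by Benjamini-Hochberg over all tested genes. The fit was tested on simulated data. Relations used two-sided permutation tests (100000 resamples, exact for 6 libraries), with Benjamini-Hochberg adjustment over 20 pairs, of which 6 were added later. The permutations did not keep libraries within their groups, so shifts between groups enter all these p-values. Some items that the rules for pairs and named genes cover are not reported here.

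Named genes were the 10 members, from each of 17 lists the 3 genes of highest mean TPM and up to 4 called genes of lowest p, and the 5 genes most like Ttr and most like Dcn. Defining choroid plexus genes near 0, Col3a1, Lum and Acta2 were singled out after their values were seen. The members and lists were chosen with earlier results of these data known. Single values in text were limited mainly to comparisons with an unadjusted p under 0.1. Alternatives were a pseudocount of 0.1, no filter, a mean of at least 5 TPM, median-of-ratios scaling, no trend, fits of 2 groups alone, leaving out each library, and terms for the library numbers 9, 12 and 13 that B6 and BALB/c libraries share.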

Additional observations from a re-analysis of the deposited data

How the results depend on the processing

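The count of members called was 0 in both CRS comparisons, the interaction and the averaged effect under every alternative run. For BALB/c against B6 in controls it was 1, and it was 3 with the replicate block, 0 with only those 2 groups in the fit, and 0 to 3 over the fits that each left out 1 library. The block added Enpp2 (-0.70, adjusted p 0.0497) and Col1a2 (-0.90, adjusted p 0.0425, both limma). For BALB/c against B6 under CRS the count was 1, and it was 0 with a mean of at least 5 TPM, since Folr1 then falls below the filter, and 0 to 2 over the fits that left out 1 library. The adjusted p of Igf2 in controls ran from 0.00687 to 0.0502 and that of Folr1 under CRS from 0.00997 to 0.05003 (limma) over those fits. Of 28 comparisons of a member with an unadjusted p under 0.1, 0 changed direction under any alternative chosen at the outset, 2 lost the call and 4 gained it under at least 1. Of the other 32, 16 changed direction under at least 1, none of them called. All genes called in controls numbered 777, and 428 (without BALB/c control library 10) to 1389 (without B6 control library 9) when 1 library was left out, 437 with a mean of at least 5 TPM and 443 with those 2 groups alone. For CRS against control they numbered 0 in B6 (up to 7, with no filter), 1 in BALB/c (0 to 2), 1 on average (0 to 2) and 0 for the interaction (up to 2). Between strains under CRS they numbered 1264, and 539 (without B6 CRS library 12) to 1852 when 1 library was left out, 702 with a mean of at least 5 TPM and 750 with the block. Median-of-ratios scaling moved the share of lower calls from 71.2% to 54.4% in controls and from 69.2% to 53.5% under CRS. Libraries sharing a number did not deviate together (correlations of deviations across genes -0.242, -0.0293 and -0.0361 for numbers 9, 12 and 13), and these are mice of different strains, so the block is no pairing. Having 3 libraries a group, at unknown depth, limits what could be detected.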
